A study of Mus musculus with 24 samples.

Results

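Cck, which encodes the peptide hormone cholecystokinin, and the genes of its receptors, Cckar and Cckbr, were followed in mouse kidney after myocardial infarction (MI). They are 3 of the 56941 genes in the count table. Cck was selected on its higher expression at 28d post-MI against sham in these same kidneys, and Cckar and Cckbr were taken along as its receptors. The difference of Cck at 28d post-MI is therefore given as a description with no test. The receptors, the genes that varied with Cck among kidneys of one group and the other genes of the pathway were not used for that choice and were tested. The members and the gene lists were, however, chosen with earlier results of these data known, so tests on listed genes may not be independent of those results.

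Cholecystokinin is made as a prohormone, cut by prohormone convertases, sulphated on tyrosine and amidated at its carboxyl end. It is known as a hormone of intestinal I cells, which release bile and pancreatic enzymes through it, and as one of the most abundant peptides of the brain. Both receptors couple to Gq, phospholipase C and calcium release. The receptor encoded by Cckar prefers the sulphated hormone, while that encoded by Cckbr also binds gastrin.

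Male C57BL/6J wild-type mice, 8 to 11 weeks old at surgery, had the left anterior descending coronary artery tied permanently or underwent a sham operation without the ligation. Kidney RNA was read from the 3′ ends of mRNA with unique molecular identifiers (MACE) in 8 sham mice, in 8 mice at 5d post-MI and in 6 mice at 28d post-MI whose columns could be assigned, out of 24 listed kidneys. All sham kidneys were collected 5d after surgery, so that infarction, time since surgery and age cannot be told apart in the comparison of 28d post-MI with sham. No transgene, Cre or drug arm was part of these groups.

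Total counts per kidney were between 2280618 and 3786275. The tissue carried tubular transcripts, among them Slc34a1 of the proximal tubule (4313 CPM in sham) and Umod of the thick ascending limb (830.2 CPM), while Slc5a2, a defining transporter of the early proximal tubule, was near 0 (0.31 CPM). In sham replicates 2 and 6 the summed level of the 8 adrenal cortex markers was 1050 and 827 CPM, against 99.9 CPM in 5d replicate 5 and 5.69 to 10.5 CPM in all other kidneys. With the adrenal cortex and adipocyte levels as covariates the log2 fold changes of Cck and Cckar moved by less than their standard errors.

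In the GRCm38 annotation Cck (ENSMUSG00000032532) lies on the minus strand of chromosome 9 from 121489824 to 121495694. Cckar (ENSMUSG00000029193) lies on the minus strand of chromosome 5 from 53697776 to 53707705, and Cckbr (ENSMUSG00000030898) on the plus strand of chromosome 7 from 105425731 to 105470898. Each of the 3 genes overlaps 0 other annotated genes.

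The bases just upstream of Cck are shown because the E-box and the element resembling a cyclic AMP or AP-1 site in this promoter are the known binding sites of the regulators whose transcripts are described further on. The sequence is that of RefSeq for GRCm38.p6, chr9:121495695-121495944 on the minus strand, and covers the 250 bases before the start of transcription. Capitals mark the letters CACGTG, 66 to 61 bases before the start, and TGCGTCA, 49 to 43 bases before it.
Cck promoter: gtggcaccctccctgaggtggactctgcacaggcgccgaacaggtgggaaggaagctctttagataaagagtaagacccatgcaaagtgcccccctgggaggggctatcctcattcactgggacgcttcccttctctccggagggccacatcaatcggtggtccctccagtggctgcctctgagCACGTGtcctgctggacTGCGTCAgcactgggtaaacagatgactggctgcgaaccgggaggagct
Searched on both strands, CACGTG occurred in 6.02% and TGCGTCA in 1.75% of the 32851 promoter windows of the same length, and both occurred together in 0.174%. The letters of these motifs do not overlap each other. A window was found for Cckbr too, while Cckar had no entry.

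Cck was measured in every kidney, with 178 to 455 counts. Its level is given in counts scaled to the TMM-normalised library (CPM), which for 3′ end reads is not divided by gene length. In the 8 sham kidneys, replicates 1 to 8, Cck was at 59.2, 87.9, 86.2, 81.7, 80.9, 84.9, 94.9 and 81.5 CPM, a mean of 82.2 ± 10.3 (SD, n = 8). Replicate 1 lay apart below the other 7 sham kidneys, which differed little among themselves.

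At 5d post-MI, in replicates 1, 2, 3, 5, 6, 7, 8 and 9, Cck was at 96.7, 107, 124, 73.7, 77.1, 130.3, 91.0 and 104 CPM (100.5 ± 20.2, SD, n = 8). The groups overlapped, with 5 of 8 kidneys above every sham kidney and replicates 5 and 6 below 7 of the 8 sham kidneys. The log2 fold change against sham was 0.30 (SE 0.12, adjusted p = 0.561 from edgeR's quasi-likelihood test), so that Cck was not called at 5d post-MI. This comparison shares the sham kidneys on which Cck was chosen.

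At 28d post-MI, in replicates 1, 2, 3, 4, 6 and 7, Cck was at 109, 127, 111, 121, 167 and 143 CPM (129.7 ± 22, SD, n = 6). All 6 kidneys were above every sham kidney, which is part of what Cck was chosen for. The ratio of the group means was 1.58 and the log2 fold change was 0.66 (SE 0.13). With each kidney left out in turn it stayed between 0.58, without 28d replicate 6, and 0.71.

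Sham, 5d and 28d post-MI was thus the order of the Cck means, and each neighbouring pair overlapped in single kidneys. Of the 6 kidneys at 28d post-MI, 2 were above every kidney at 5d, and the log2 difference between the times was 0.37 (SE 0.13, adjusted p = 0.325 from edgeR, unadjusted 0.00927). The 28d kidneys in this comparison are again those that chose Cck. In whole kidney RNA, a change in the number of cells that express a gene and a change in RNA per cell cannot be told apart.

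**Figure D1:**
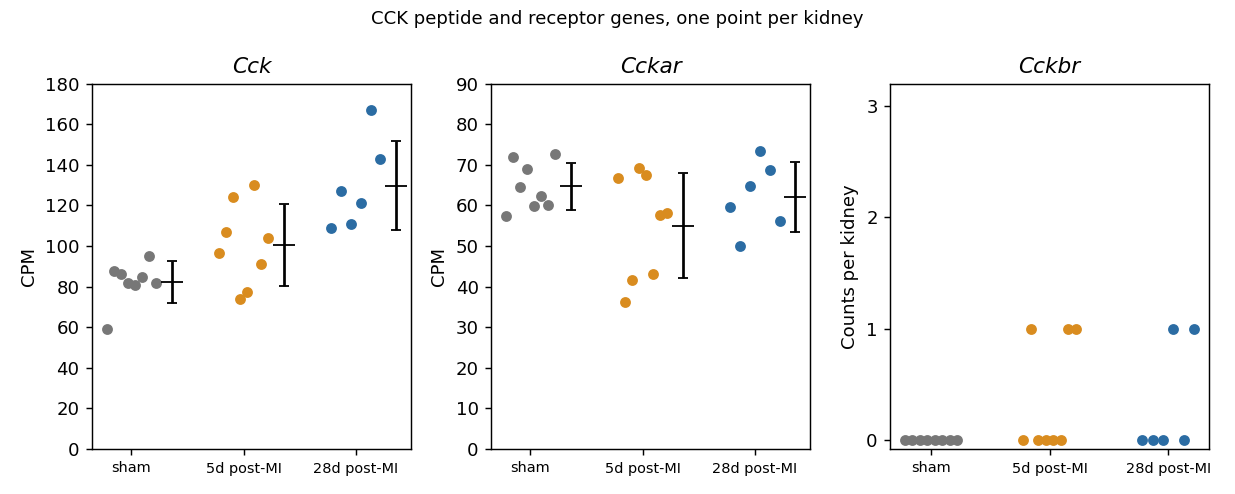
Level of Cck and Cckar (CPM) and counts of Cckbr in each of 22 kidneys, with the group mean and SD as a black bar beside the points of Cck and Cckar. Above the highest sham value of Cck lay 5 of the 8 points at 5d and all 6 at 28d post-MI, Cckar overlapped between all groups, and Cckbr did not exceed 1 count in any kidney.

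In both infarct groups the spread of Cck between kidneys was larger than counting alone gives. Its coefficient of variation was 12.6% in sham, 20.1% at 5d and 17.0% at 28d post-MI, against 6.36%, 5.83% and 5.37% from counting error at these counts. In sham this rested on replicate 1, since the other 7 kidneys had a coefficient of variation of 5.77% against 6.28% from counting, so that no spread of Cck beyond counting error was detectable among them. At 28d post-MI it was 11% without replicate 6, against 5.48% from counting, and at 5d it stayed between 17.7% and 21.8% with any kidney left out. These values with a kidney left out were added after seeing the data. Values of r within the sham group, given further on, include replicate 1.

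Cckar, the receptor gene that prefers sulphated CCK, was also measured in every kidney, with 119 to 262 counts. In the sham kidneys, in the same order, it was at 57.5, 71.8, 64.5, 69.0, 59.9, 62.2, 60.1 and 72.6 CPM (64.7 ± 5.77, SD, n = 8). Its coefficient of variation there was 8.91%, close to the 7.14% of counting error.

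At 5d post-MI Cckar was at 66.7, 36.3, 41.7, 69.3, 67.6, 43.0, 57.6 and 58.0 CPM (55.0 ± 13.0, SD, n = 8). Replicates 2, 3 and 7 lay below every sham kidney, while the other 5 were within the sham range, and the coefficient of variation rose to 23.7% against 7.96% from counting. The log2 fold change against sham was −0.24 (SE 0.12, adjusted p = 0.633 from edgeR), which was not past the threshold. At 28d post-MI the level was 59.5, 50.1, 64.7, 73.3, 68.7 and 56.1 CPM (62.1 ± 8.50, SD, n = 6), with a log2 fold change of −0.06 against sham (SE 0.13, adjusted p = 0.942 from edgeR). Against 5d post-MI the 28d kidneys differed by 0.18 on the log2 scale (SE 0.13, adjusted p = 0.751 from edgeR). The order of the Cckar means was 5d, 28d and sham, and no neighbouring pair differed beyond its spread.

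Cckbr, the receptor gene shared with gastrin, was at the limit of detection. It had 0 counts in all 8 sham kidneys, 1 count in 5d replicates 2, 8 and 9, and 1 count in 28d replicates 4 and 7, in total 5 of 65185960 counts. A count of 0 allows up to 3 counts in a kidney, or 0.792 to 1.32 CPM, so all kidneys lay at or under this limit and no fold is given. Two-sided exact permutation tests of the mean CPM gave p = 0.2 for 5d against sham, 0.165 for 28d against sham and 0.874 for 28d against 5d, or 0.3, 0.3 and 0.874 adjusted over the 3 comparisons. A difference in Cckbr was not detectable at this depth. Gast, the gene of gastrin, had 0 counts in all 22 kidneys.

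Of the 3 members, Cck and Cckar were among the 12780 genes past the count filter. Across all tested genes 0.0704% were called at an adjusted p under 0.05 at 5d against sham, 0.0235% at 28d against sham and 0.415% between 28d and 5d. Neither tested member was called at 5d against sham or between the times, and Cckar was not called at 28d against sham. Without the low-count filter the calls over all genes rose from 9 to 80, from 3 to 94 and from 53 to 160 in these comparisons, and neither Cckar nor, in the comparisons in which it was tested, Cck was among them.

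Among kidneys of the same group, Cck and Cckar ran in opposite directions at 5d post-MI. The highest Cck levels there, in replicates 7, 3 and 2 (130.3, 124 and 107 CPM), came with the lowest Cckar levels (43.0, 41.7 and 36.3 CPM), and the lowest Cck levels, in replicates 5 and 6, with the highest Cckar levels. Pearson's r was −0.80 over the 8 kidneys (exact permutation test, two-sided, p = 0.0202, adjusted over the 3 groups 0.0606), and Spearman's rho was −0.83 (exact p = 0.0154, adjusted 0.0461). With each kidney left out r stayed between −0.91 and −0.75. Without the 2 kidneys farthest from the median of Cck r was −0.67 (exact p = 0.175, n = 6). In sham kidneys r was 0.38 and rho 0.33 (exact p = 0.406 and 0.428, n = 8; without 2 kidneys r = 0.16). At 28d post-MI r was 0.09 and rho −0.03 (exact p = 0.86 and 1, n = 6; without 2 kidneys r = −0.31). Over all 22 kidneys centred on their group means r was −0.42 (permutation p = 0.104) and rho −0.42 (p = 0.0854), and r was −0.48 without the 2 farthest. Leaving out single kidneys moved r from −0.31 to 0.62 in sham and from −0.40 to 0.25 at 28d, so its sign was not settled in either group. Whether r differed between the groups was not tested.

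**Figure D2:**
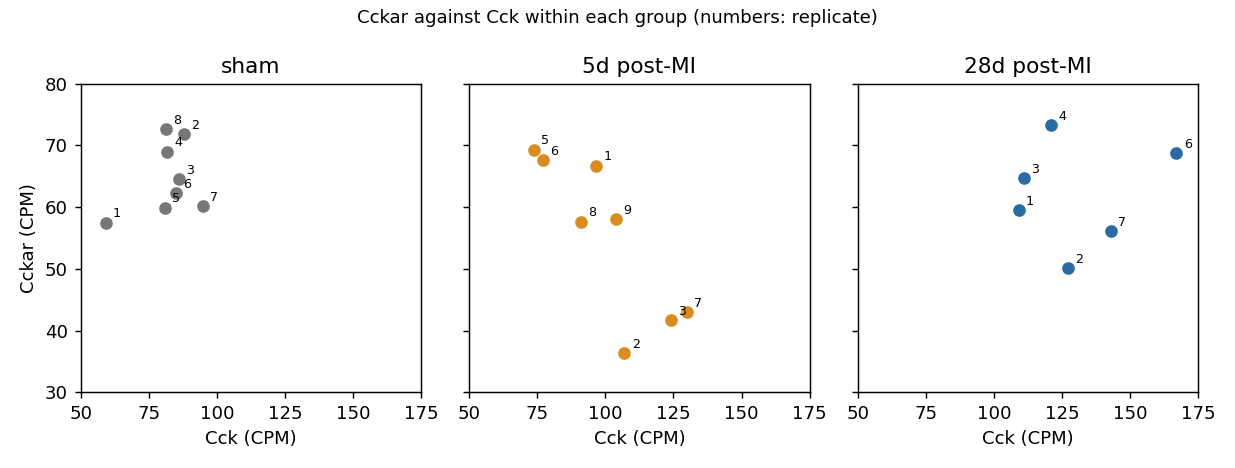
Cckar against Cck in CPM, with 1 panel for each group, 1 point for each kidney and its replicate number beside it. At 5d post-MI the kidneys ran from high Cckar and low Cck (replicates 5 and 6) to low Cckar and high Cck (replicates 2, 3 and 7), with r = −0.80. In the sham kidneys r was 0.38 and in the 28d kidneys 0.09, and both changed sign when certain single kidneys were left out.

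Summed levels of 22 lists of cell type markers were set beside both genes, centred on group means over all 22 kidneys. For Cck, 0 of the 22 lists passed after adjustment, and 3 had an unadjusted permutation p under 0.05. The highest r, 0.64, was with the 8 thin limb markers (rho 0.51, p = 0.00565 and 0.0264, adjusted 0.124 and 0.491). Within groups this r was −0.50 in sham, 0.89 at 5d and 0.80 at 28d post-MI. At 5d the summed thin limb level was highest in replicates 7 and 3 (877 and 725 CPM), which also had the highest Cck, and lowest in replicates 5 and 8 (200 and 210 CPM). Sham kidneys, which had the lowest mean Cck, had the highest median thin limb level, 518 CPM against 351 at 5d and 377 at 28d post-MI. Without the 2 kidneys farthest from the median of the list, r was 0.45 (permutation p = 0.0712).

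Cryab, a small heat shock protein gene of the inner medulla, made up most of the thin limb level, at 402.7 CPM in sham kidneys, and had r = 0.64 with Cck. Of the other tested markers of this list, Sptssb and Slc4a11 had r = 0.46 and 0.40, and Jag1 0.03, and all 7 tested markers had a positive r. With the thin limb level as a covariate, an alternative chosen after these values were seen, the log2 fold change of Cck was 0.40 (SE 0.09) at 5d and 0.78 (SE 0.10) at 28d against sham, larger than without it. For Cck at 5d post-MI the adjusted p from edgeR was then 0.0902. The list was taken as the one with the highest r with Cck in these kidneys, which by itself narrows the SE. These values are therefore a description, and whether thin limb content bears on the level of Cck was not tested.

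The next lists for Cck were renal pelvis and urothelium, endothelium and principal cell. For pelvis and urothelium r was 0.51 (rho 0.38, permutation p = 0.0364 and 0.106, adjusted 0.322 and 0.491), reached 0.87 at 5d post-MI and was −0.23 in sham. For the endothelium r was 0.49 (rho 0.43, permutation p = 0.0439 and 0.0656, adjusted 0.322 and 0.491), with 0.74 in sham and −0.23 at 28d. Without the 2 farthest kidneys r fell to 0.19 and 0.36 for these lists (permutation p = 0.451 and 0.165). The lowest r, −0.37, was with the proximal tubule S1-S2 markers (rho −0.37, permutation p = 0.133 and 0.112, adjusted 0.516 and 0.491, and −0.08 without the 2 farthest), again with its largest size at 5d post-MI (−0.76). Adrenal cortex, adipocyte and erythrocyte markers had r between −0.06 and −0.02 with Cck. Without the 2 kidneys farthest from its median, the adrenal cortex list had r = −0.47 (permutation p = 0.0339, not adjusted).

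Cckar was compared with the same lists after the values of Cck had been seen, and 3 of the 22 lists passed. With the 8 proximal tubule S3 markers r was 0.73 (rho 0.65, permutation p = 0.00113 and 0.00248, adjusted 0.015 and 0.0383), positive in each group with 0.54 in sham, 0.80 at 5d and 0.70 at 28d. Without the 2 farthest kidneys it was 0.36 (permutation p = 0.0735), so this relation rested on them. With the thick ascending limb markers r was −0.54 (rho −0.56, permutation p = 0.00136 and 0.00803, adjusted 0.015 and 0.0589), negative in each group and −0.64 without the 2 farthest (permutation p = 0.00669). Both calls were lost without any one of sham replicate 1, 5d replicate 2 and 5d replicate 3, and that of the thick ascending limb also with library totals in place of TMM (adjusted p = 0.0609, permutation).

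The third list, chromaffin cell and sympathetic neuron, gave r = 0.46 with Cckar (rho 0.59, permutation p = 0.00492 and 0.00348, adjusted 0.0361 and 0.0383, and r = 0.75 without the 2 farthest). Its level was mainly that of 1 gene. Slc18a1, a vesicular monoamine transporter gene, held 72.1% of the counts of the list in sham, 94.8% at 5d and 93.9% at 28d post-MI, and Th and Pnmt were at 0 in all kidneys of both groups. The proximal tubule S1-S2 list had r = 0.57 with Cckar (rho 0.56, permutation p = 0.0174 and 0.0161, adjusted 0.096 and 0.0888, and 0.44 without the 2 farthest). Without sham replicate 1, 5d replicate 2 or 5d replicate 3, 0 of the 22 lists passed, and without 5d replicate 7, 4 passed. The chromaffin list was lost without any one of 9 kidneys, sham replicates 1, 2 and 7 and 5d replicates 1, 2, 3, 5, 6 and 8. For library totals in place of TMM, 1 list passed.

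**Figure D3:**
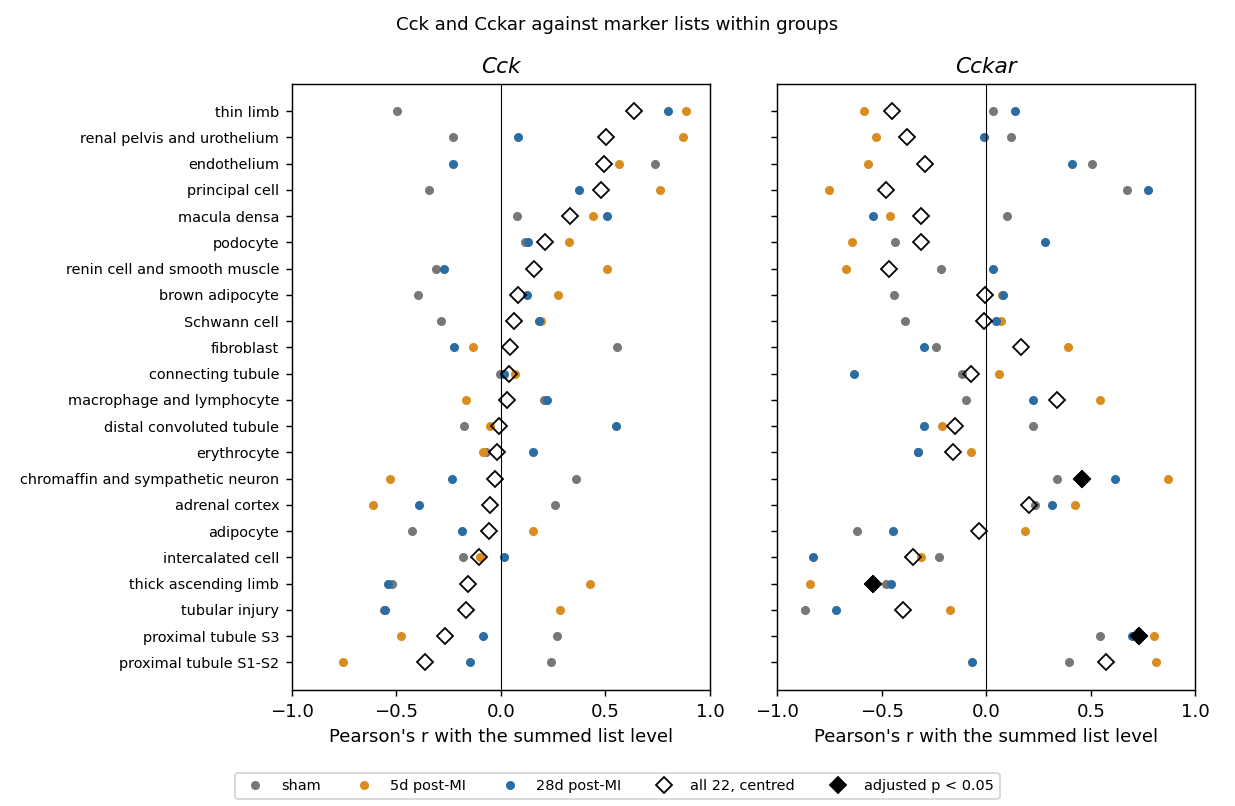
Pearson's r of log2 CPM of Cck (left) and Cckar (right) with the log2 summed level of 22 marker lists, for each group (coloured points) and over all 22 kidneys centred on group means (diamonds, filled where the adjusted p was under 0.05). No list passed for Cck, whose highest r was with the thin limb (0.64). For Cckar the proximal tubule S3, thick ascending limb and chromaffin lists passed, the last made up mainly of Slc18a1. Each of these calls was lost without certain single kidneys.

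Gene by gene, 12779 genes were tested for a slope on Cck within groups. The test called 0 genes, 0% of those tested, at an adjusted p under 0.05, and the lowest adjusted p was 0.394 (edgeR). At an unadjusted p under 0.05 there were 635 genes, 369 with a positive and 266 with a negative slope. This is about the share of the 12779 genes that such a threshold gives by chance alone. DESeq2 called 1 gene, Cldn11, and limma voom 0. Without the low-count filter 29 genes were called among 30115, of which 25 had a positive slope. Those with a symbol were Adap1, Apobec3, Atp10b, Bcam, Cldn11, Ehf, Elf5, Ephx1, F2rl1, Fam174b, Gm42031, Gm9320, Hacd4 and Hcar2. Further ones were Hspb1, Lamb3, Ly6c1, Npy1r, Ranbp3l, Rasal1, Rnf183, Scgb1a1, Serinc2, Serinc3, Serping1, Tinagl1 and Wnt7b, and the rest had no symbol. The central range of r over all tested genes, from the 5th to the 95th percentile, was −0.38 to 0.39.

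Among genes with 50 or more counts per kidney on average, those most like Cck are therefore named as a description. They are the 10 with the highest and the 5 with the lowest r over the 22 kidneys centred on group means. These came from 1780 genes with the same sign of r in every group, among 7347 with 50 or more counts per kidney on average. Ss18, which encodes a subunit of the BAF chromatin remodelling complex, came first with r = 0.75, made up of 0.43 in sham, 0.90 at 5d and 0.85 at 28d post-MI. Its level itself did not move between groups, with log2 fold changes of 0.01 at 5d and 0.04 at 28d against sham.

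Mkln1, encoding the muskelin subunit of an E3 ubiquitin ligase complex, had r = 0.70 and Kank3 0.69. Serinc3, a membrane protein gene, had r = 0.69 with like values in sham (0.65), 5d (0.74) and 28d kidneys (0.77). Tinagl1, which encodes a matricellular protein, had r = 0.66, but 0.05 at 28d post-MI. Gm13680, at 0.69, is annotated as a processed pseudogene, so its reads may belong to a near-identical copy.

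Akr1b3, which encodes aldose reductase, the enzyme that makes sorbitol in the inner medulla, had r = 0.68 with 0.07 in sham, 0.86 at 5d and 0.88 at 28d. At 5d post-MI it ran from 14.1 CPM in replicate 5, the kidney with the lowest Cck, to 146 CPM in replicate 7, the kidney with the highest. Its slope, 2.13 log2 units for each log2 unit of Cck (SE 0.54, adjusted p = 0.563 from edgeR), was the steepest of the 15. Hspb1, a small heat shock protein gene, had r = 0.66, with 0.01 in sham, 0.87 at 5d and 0.62 at 28d. Apart from replicate 1, sham kidneys had no detectable spread of Cck beyond counting error, so a low r in sham says little. Neither slope passed, both genes were picked for their r, and whether r differed between the groups was not tested.

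Splicing factor genes Snrpb and Sf3b2 had r = 0.66 and 0.65, made up of 0.39 and 0.19 in sham, 0.87 and 0.74 at 5d and 0.79 and 0.90 at 28d. The limit on r in sham kidneys given above holds here too. On the negative side were Gm9320 (−0.70), Psmd3 (−0.68), Stk38 (−0.65), Frs2 (−0.65) and Tomm34 (−0.64). Psmd3 encodes a subunit of the proteasome lid, Stk38 a kinase of the NDR family, Frs2 an adaptor of fibroblast growth factor receptors and Tomm34 a cochaperone of mitochondrial import, while Gm9320 is annotated as a transcribed processed pseudogene. For Frs2 the r was −0.90 in sham and −0.32 at 5d post-MI. The sham value includes replicate 1, which was lowest for Cck and highest for Frs2 (26.6 CPM, nearest 20.2). Without that kidney the slope of Frs2 on Cck was −0.39, against −0.59 with it. All 15 genes kept the sign of their slope in each of the 6 alternative fits and with each of the 22 kidneys left out. They were picked for their r and its sign in these same kidneys, so the kept sign gives no further support. Without the low-count filter 4 of them, Serinc3, Tinagl1, Hspb1 and Gm9320, were among the 29 genes called of 30115.

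**Figure D4:**
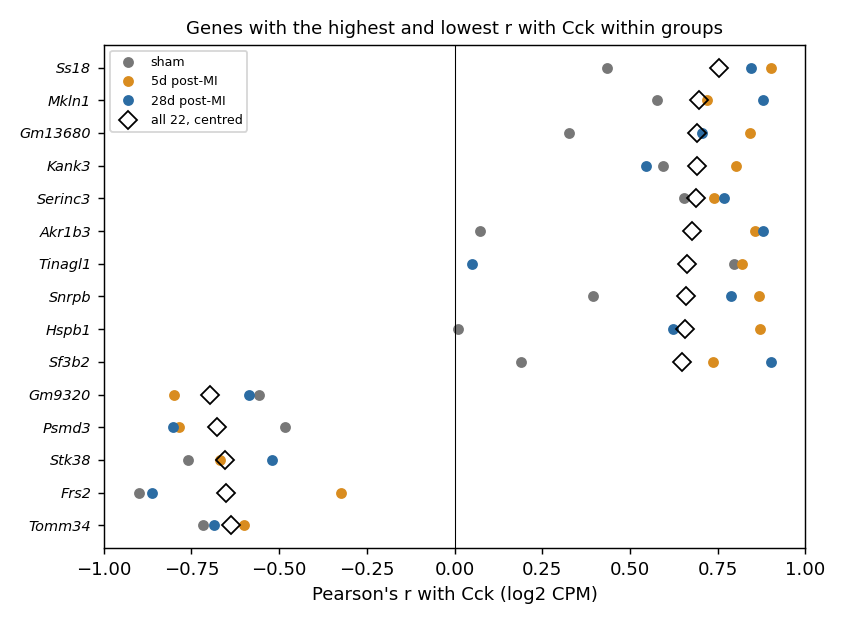
Pearson's r with Cck (log2 CPM) of the 10 genes with the highest and the 5 with the lowest r, for each group (coloured points) and over all 22 kidneys centred on group means (diamonds). These genes were picked for their r, from 0.75 for Ss18 to −0.70 for Gm9320. Of the 10 highest, 6, among them Akr1b3 and Hspb1, had an r under 0.45 in sham kidneys. Apart from replicate 1, sham kidneys had no detectable spread of Cck beyond counting error, which limits r there.

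Genes that make the active peptide were described next. Of the 10 processing genes, 8 were tested and 0 were called in any comparison. Their median log2 fold changes were −0.08 at 5d and 0.01 at 28d against sham, beside medians of 0.00018 and −0.0012 over all tested genes. Over all tested genes 0.0704% were called at 5d against sham, 0.0235% at 28d against sham and 0.415% between 28d and 5d. With shares this low, 0 calls in a short list does not show that its genes were unchanged. Pcsk1 and Pcsk2, which encode the prohormone convertases of endocrine cells, were near 0, with 3 counts of each over the 8 sham kidneys, 0 and 0 at 5d and 0 and 2 at 28d post-MI. Ctsl (336.4 CPM in sham), Furin (214.2) and Pam (131.4), a lysosomal protease, a ubiquitous convertase and the amidating enzyme, had the highest levels of the list. Furin had r = −0.50 with Cck (−0.84 at 5d post-MI), the only slope of the list with an unadjusted p under 0.05 (edgeR, p = 0.03, adjusted 0.937).

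Of the 8 genes of peptidases that can degrade CCK and related peptides, all were tested. The list was drawn up with earlier results of these data known, and 0.415% of all tested genes were called between 28d and 5d. Enpep, which encodes aminopeptidase A, an enzyme that cleaves acidic residues from the amino end, was the only gene of the list called. It was at 84.0 ± 8.17 CPM (SD, n = 8) in sham, 94.0 ± 11.5 (SD, n = 8) at 5d and 75.3 ± 4.16 (SD, n = 6) at 28d post-MI, and fell by 0.32 on the log2 scale between 5d and 28d (SE 0.08, adjusted p = 0.0345 from edgeR). In 28d kidneys it was between 71.5 and 81.7 CPM, and of the 5d kidneys only replicate 1, at 77.8 CPM, lay in that range. The call of Enpep was lost without any one of 5d replicates 2, 5, 8 and 9 or of 28d replicates 2, 3, 4, 6 and 7, with log2 differences between −0.33 and −0.29 and adjusted p-values from 0.0519 to 0.101 (edgeR). Limma voom gave an adjusted p of 0.0545, and edgeR gave 0.0577 when the sham kidneys were left out of the fit. Against sham it was not called at 5d (log2 fold change 0.16, adjusted p = 0.549 from edgeR) or at 28d (−0.16, adjusted p = 0.558). Ace (147.1 CPM in sham), Anpep (116.7 CPM) and the other 5 genes were not called.

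Of the 21 genes that carry the signal of CCK receptors, from Gq and Gs alpha subunits to phospholipase C, IP3 receptors, protein kinase C, receptor kinases and arrestins, 19 were tested and 0 were called in any comparison. Since at most 0.415% of all tested genes were called in any comparison, 0 calls does not show that these genes were unchanged. Their median log2 fold change was −0.02 at 5d and 0.01 at 28d against sham. Gnas (445.1 CPM in sham), Gna11 (159.6) and Itpr1 (134.8), the genes of Gs alpha, a Gq family member and an IP3 receptor, had the highest levels of the list and log2 fold changes near 0. Plcb4, a phospholipase C beta, had a positive slope on Cck (r = 0.42, edgeR p = 0.0377, adjusted 0.965).

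Among the 11 regulators of the Cck promoter, 3 genes of AP-1 subunits were called between 28d and 5d post-MI, all higher at 28d. In that comparison 0.415% of all tested genes were called. The list of regulators was also drawn up with earlier results of these data known. AP-1 and CREB family dimers are known to bind elements such as the TGCGTCA shown above. Fos was at 118.5 ± 40.0 CPM (SD, n = 8) in sham, 36.2 ± 26.0 (SD, n = 8) at 5d and 160.1 ± 54.9 (SD, n = 6) at 28d post-MI. Its 28d kidneys, from 96.8 to 246 CPM, were all above the 5d kidneys, from 6.4 to 78.5 CPM, a log2 difference of 2.14 (SE 0.39, adjusted p = 0.0109 from edgeR). Jun (1.69, SE 0.26, adjusted p = 0.00342) and Junb (1.95, SE 0.33, adjusted p = 0.00617) rose in the same comparison. When the sham kidneys were left out of the fit the adjusted p from edgeR was 0.0772 for Fos and 0.0577 for Junb, at the same log2 differences, while Jun stayed under 0.05 in all alternatives. Against sham none of the 3 passed, at 5d with log2 fold changes of −1.70, −1.17 and −1.52 and adjusted p-values of 0.119, 0.1 and 0.098 from edgeR. Within groups r with Cck was −0.16 for Fos, −0.29 for Jun and −0.09 for Junb. The mean levels of these 3 genes were lowest at 5d and highest at 28d post-MI. Those of Cck were lowest in sham and highest at 28d. Whether any of the 3 genes acts on Cck was not tested. Of the E-box factors, Usf1 (13.7 CPM in sham) and Usf2 (66.8) were not called, nor was Creb1 (32.8). The coactivator gene Crtc2 had r = −0.44 with Cck and an adjusted p for its edgeR slope of 0.986.

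**Figure D5:**
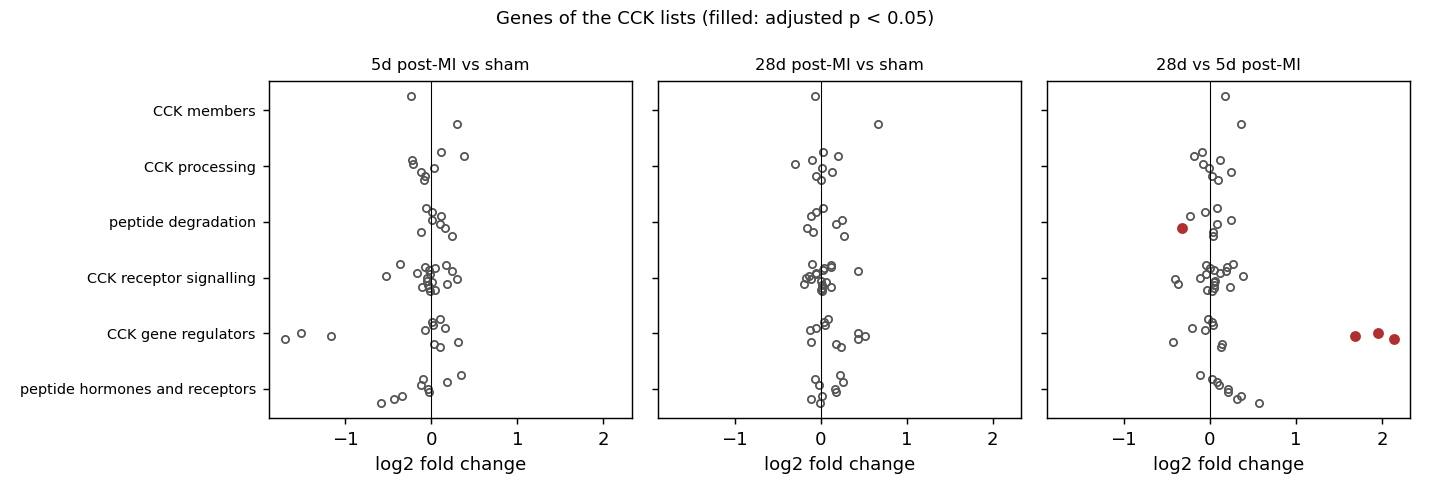
Log2 fold change of each tested gene of the members and 5 pathway lists in the 3 comparisons, with filled points for an adjusted p under 0.05 in edgeR. The only called genes were Fos, Jun and Junb (2.14, 1.69 and 1.95) and Enpep (−0.32), all between 28d and 5d post-MI. The point of Cck at 28d against sham (0.66) is the difference it was chosen for and is given with no test, so its fill carries no result.

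Of 40 other genes of peptide hormones and their receptors, only 9 passed the count filter. None was called in any comparison, beside at most 0.415% of all tested genes. In all 22 kidneys 7 of the 40 had 0 counts: Gast, Ghsr, Pyy, Sstr1, Galr1, Tac1 and Tacr1. Ramp2, Ednrb and Ramp3, which encode a receptor modifying protein, the endothelin B receptor and another modifying protein, had the highest levels among those tested, at 19.5, 17.1 and 16.2 CPM in sham kidneys. Npy1r, a neuropeptide Y receptor gene, had r = 0.58 with Cck and was positive in every group (edgeR slope p = 0.00207, adjusted 0.668, and called without the low-count filter).

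Slitrk6, Gdf15 and Psap, which the study named together with Cck for the same contrast, were compared with Cck kidney by kidney. They too were singled out at 28d against sham, so comparisons that use the 28d or sham kidneys are not independent of that choice. Gdf15, a stress-induced cytokine gene, was at 20.3 ± 6.22 CPM (SD, n = 8) in sham, 13.0 ± 4.83 (SD, n = 8) at 5d and 35.1 ± 9.97 (SD, n = 6) at 28d post-MI, and rose by 1.45 on the log2 scale between 5d and 28d (SE 0.22, adjusted p = 0.00342 from edgeR). At 5d 6 of 8 kidneys had less Gdf15 than every sham kidney, whereas 5 of 8 had more Cck than every sham kidney. Within groups r with Cck was −0.30 for Gdf15 and −0.34 for Slitrk6, a neuronal transmembrane protein gene at 2.44 ± 0.75 CPM (SD, n = 8) in sham, 3.92 ± 1.14 (SD, n = 8) at 5d and 5.45 ± 2.09 (SD, n = 6) at 28d. For Psap, the gene of the lysosomal protein prosaposin, r was 0.36. In 28d replicate 6, the kidney with the most Cck (167 CPM), Slitrk6 (2.38 CPM, 6 counts) and Gdf15 (26.6 CPM) were at their lowest of that group. In 28d replicate 4, the kidney with the most Gdf15 (54.6 CPM), Cck was at 121 CPM. Slitrk6 had only 3 to 23 counts per kidney, so its levels and its r carry a large counting error.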

How the data were processed

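MACE libraries of mouse kidney were sequenced from 3′ ends with unique molecular identifiers. The authors state trimming with Cutadapt and counting with HTSeq. The processing notes of the submitters also name FastQC, Bowtie2 and DESeq2. They give mm39, whereas the methods give mm10, so positions here are those of GENCODE M21 (GRCm38), which names 51948 of the 56941 identifiers. The strand setting is not given in the sources used here. The deposited values are the authors' whole-number counts per gene, without normalization. Of 48 columns of values, 26 were not used, namely 22 tpm columns and 4 columns whose names are shared by a kidney of the 5d and a kidney of the 28d group, so that 2 of 24 kidneys were left out. Replicates were listed as separate samples, and p-values measure the spread between these samples. No pair of libraries of a group agreed within counting noise (chi-squared per degree of freedom 1.69 to 7.21 over 71 pairs).

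Total counts had medians of 3206756.5 in sham, 3057828.5 at 5d and 2644573.5 at 28d post-MI, and floors of 3 counts cover counting error only. Counts were fitted with edgeR 4.0.16 (R 4.3.3; filterByExpr, TMM, robust quasi-likelihood, 3 groups, two-sided, Benjamini-Hochberg over all tested genes, called under 0.05). The slope on Cck used its group-centred log2 CPM with a prior count of 2. Marker lists were summed (pseudocount 1 CPM) and correlated with 100000 permutations of kidneys within groups, two-sided, with Python 3.11.15 and scipy 1.17.1. Alternatives used DESeq2 1.42.0 and limma 3.58.1. The fits were run on simulated data, where a minimum recovery of changed genes was required of the group fits but not of the slope fits. How many true slopes the slope fit would find at the observed spread of Cck is not reported here. Named genes are the 3 members, the 10 highest and 5 lowest r (50 or more mean counts, same sign in every group), Slitrk6, Gdf15, Psap and, of the pathway lists, called genes, those at 0 and up to 3 of the highest level. Pcsk1, Pcsk2, the remaining regulators, genes with a single low slope p, genes with a slope called in an alternative fit and marker genes were named after their values were seen. Members and lists were chosen with earlier results of these data known.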

Additional observations from a re-analysis of the deposited data

Results flagged for a closer look

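Cck in sham replicate 1 was at 59.2 CPM and the nearest other sham kidney at 80.9 CPM, a gap past Dixon's 95% limit. The same kidney was the highest of the 8 sham kidneys, past this limit, for Frs2 (26.6 CPM, nearest 20.2) and for Stk38 (61.5 CPM, nearest 53.9). Gm9320 in 5d replicate 5 was at 82.6 CPM with the nearest kidney at 59.3. Gdf15 was at 24.1 CPM in 5d replicate 1, with the nearest at 14.7, and at 54.6 CPM in 28d replicate 4, with the nearest at 34.6. Of 60 groups of values checked, 6 held such a kidney, and chance gives about 1 in 20. Stk38, Frs2 and Gm9320 were picked for following Cck in the opposite direction. Without sham replicate 1 the log2 fold change of Cck was 0.60 at 28d and 0.24 at 5d against sham.

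The change from sham differed between 28d and 5d post-MI for 5 listed genes, as tested by the 28d against 5d comparison of edgeR: Gdf15 by 1.45 on the log2 scale (adjusted p = 0.00342), Jun by 1.69 (0.00342), Junb by 1.95 (0.00617), Fos by 2.14 (0.0109) and Enpep by −0.321 (0.0345, a call lost without any one of 9 kidneys). Fos, Junb and Enpep lost their calls when the sham kidneys were left out of the fit (adjusted p = 0.0772, 0.0577 and 0.0577 from edgeR). Gdf15 had been singled out on the 28d kidneys. Neither Cck nor Cckar was among these genes.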

How the results depend on the processing

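The log2 fold changes of Cck and Cckar kept their direction in all 3 comparisons under each of 8 alternatives and with each of 22 kidneys left out, and none that was tested passed the threshold. Counts of called genes moved more. At 5d against sham, 28d against sham and 28d against 5d, where 9, 3 and 53 genes were called, no filter gave 80, 94 and 160, DESeq2 36, 30 and 91, and only the groups compared 2, 31 and 26. Limma voom gave 5 in both comparisons with sham, and adrenal cortex and adipocyte covariates gave 1 in both. With each kidney left out the counts ran from 1 to 38, from 0 to 29 and from 41 to 84. With a replicate block the counts were 2, 24 and 80, and 0 genes had a slope on Cck. Replicate numbers did not pair the kidneys, since deviations of only 2 of 18 same-number pairs correlated above 0.1, with a median of 0.03. The block changed no call of a member, and Enpep lost its call under it (adjusted p = 0.174 from edgeR).

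Genes with a slope on Cck numbered 29 without the filter and 1 in DESeq2, and 0 to 2 with a kidney left out (2, Ehf and Ptgs1, without sham replicate 1). Marker lists that passed with Cck numbered 0 to 1 when a kidney was left out (thin limb without sham replicate 1 or 7, r = 0.763 and 0.702, and endothelium without 5d replicate 7, r = 0.68). With Cckar they numbered 0 to 4, and 1 with library totals. The comparison of Cckar with the lists and its alternatives were chosen after seeing the data. Cckbr between 28d and 5d, −0.0146 CPM, ranged from −0.0665 to 0.0274 CPM with a kidney left out, changing sign in 7 of 14 cases. The causes of these shifts were not tested. About 200 counts per kidney limit the precision of Cckar, and Cckbr cannot be compared at this depth.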
